A study of Mus musculus with 60 samples.

Results

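The response of nascent transcription to 1 h of the CBP/p300 inhibitor A-485 was measured by EU-seq in mouse neural progenitor cells (NPCs). In EU-seq, cells take up 5-ethynyluridine (5-EU) for a short pulse, here 0.5 mM for 20 min, and the RNA made in that pulse is captured and sequenced. The NPCs were made from mouse embryonic stem cells (mESCs) by way of epiblast stem cells. All of them carried the GFP-AID-Rad21 alleles, in which the cohesin subunit RAD21 is fused to an auxin-inducible degron, and no auxin was given in either arm of this comparison. The A-485 group holds 2 libraries of cells kept in 10 µM A-485 for 1 h, and the control group holds 2 libraries of cells without A-485, whose vehicle is not stated per sample (the protocol text names DMSO). Another 2 libraries, from the same cells and the same labelled batch after 1 h of 500 µM indole-3-acetic acid (IAA, an auxin that triggers degradation of RAD21), served as a further reference, which is not a control. Genes entered the comparison when their mean count exceeded 20 in the control or the A-485 group, which kept 16009 of 27665 transcripts, and counting stopped 90 kb from the start of each gene. Genes with a mean above 15 TPM (a count scaled by the length of the gene and the size of the library) over both groups are called expressed, and there were 9866 of them. The series has 60 libraries in all.

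CBP and p300 are paralogous lysine acetyltransferases that are recruited by transcription factors, sit at enhancers and promoters, and acetylate histones H3 and H4 as well as other proteins. They are best known as coactivators of genes under enhancer control, which include most genes that give a cell its identity, while many housekeeping genes are driven from CpG-rich promoters of their own. A-485 competes with acetyl-CoA in the catalytic site of both enzymes. Because a 20 min pulse labels only newly made RNA, the counts follow transcription more than the store of older mRNA.

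The libraries were similar in depth and the replicates were close. Total counts were 15666599 and 17730066 in the controls and 14036758 and 15424387 with A-485, and the log counts of the pair correlated at 0.997 (control) and 0.995 (A-485). The summed level of 16 neural progenitor markers was 3410 and 3670 TPM in the 2 controls, led by Vim, Fabp7, Sox9 and Sox2, against 2150 to 2460 TPM in the mESC controls of the series. All mESC levels given here were counted over whole gene bodies, and the NPC levels only up to the distance limit stated above. For genes longer than that limit, the levels in NPCs and mESCs are therefore different measures. Sox2, which pluripotent cells also express, was at 275 and 277 TPM against 1900 to 2170 in mESCs, whereas Vim, Nes and Fabp7 were higher in the NPCs. The progenitor factors Pax6 (6.57 and 7.30 TPM) and Hes5 (6 and 25 counts) were low. The summed level of 18 markers of pluripotent cells was 299 and 275 TPM, against 8520 to 9180 in mESCs. Markers of neural crest and mesenchyme were also high, with a summed level of 1810 and 1950 TPM over 14 genes, against 249 to 290 TPM in mESCs, of which Col1a1, a fibrillar collagen, held 706 and 818 TPM. Both marker sets were thus present in the controls, and in bulk libraries fewer cells of a type and less RNA per cell cannot be told apart. The counts were scaled without a spike-in, so every change is given relative to the median expressed gene, whose log2 fold change was set to 0.

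A-485 lowered transcription of a large minority of genes and raised that of very few. With an adjusted p under 0.05 by edgeR's quasi-likelihood test and a change of at least 2-fold, 3231 genes fell (20.2% of those tested) and 132 rose (0.825%). Among the expressed genes 1103 fell (11.2%) and 19 rose. By size alone, 423 expressed genes were more than 4-fold lower (4.29%), 680 were 2- to 4-fold lower (6.89%) and 731 were 1.5- to 2-fold lower (7.41%), whereas 6878 (69.7%) were not lowered by more than 1.2-fold. In the other direction, 326 were 1.5- to 2-fold higher and 20 at least 2-fold higher. The distribution was thus one-sided. Its 5th percentile lay at a log2 fold change of -1.84 and its 95th at 0.53, and the largest decrease was 129-fold against a largest increase of 2.85-fold. The p value alone separated little here, since 5648 genes were lower and 5190 higher at an adjusted p under 0.05, and the 2-fold limit set the counts. Here and below the p value is of the change before the median of 0.12 was subtracted. Small changes at this p were therefore not tested against the zero used here. The filter on counts bears on the calls too. Of the 132 genes that rose, 69 passed it only with A-485, and of the 3231 that fell, 748 passed it only in the controls. Among the expressed genes that fell, 449 of 1103 were at or under 15 TPM with A-485. They count as expressed only through their control level, so the 11.2% is not independent of the response.

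**Figure D1:**
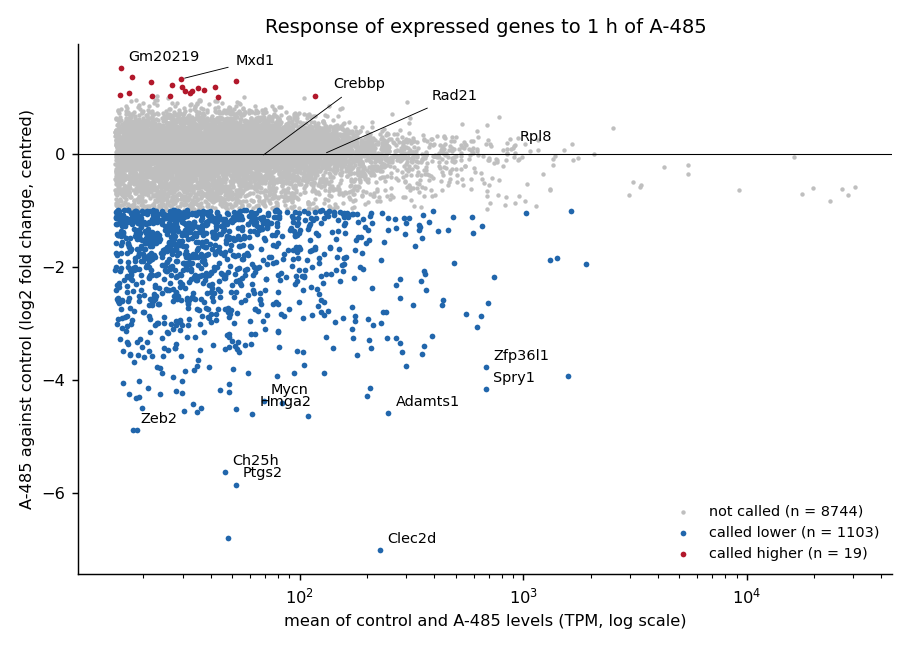
Log2 fold change of A-485 over control, centred on the median expressed gene, against the mean level of each of the 9866 expressed genes in TPM (log scale). Each point is a gene, the 1103 genes called lower are blue and the 19 called higher are red, and the cloud below 0 reaches -7.01 (Clec2d) while that above 0 ends at 1.51 (Gm20219).

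Most of these decreases were also called against the IAA libraries, which share no library with the controls. A-485 against IAA for 1 h gave 3037 genes lower (19.1% of 15882 tested) and 212 higher (1.33%). Of the 3098 genes called lower against control that could be tested in this way, 2775 were also lower against IAA, and 83 of the 132 called higher were also higher. Both comparisons use the same 2 A-485 libraries. IAA itself changed few genes, with 30 lower (0.189% of 15860) and 63 higher (0.397%) against control.

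The transcripts of the inhibited enzymes did not pass the call. Crebbp, which encodes CBP (chromosome 16, 4081328 to 4213997, minus strand), had 395 and 392 CPM (counts scaled by library size with the TMM method) in the controls and 433 and 389 with A-485, a log2 fold change of -0.06 (SE 0.07). Ep300, which encodes p300 (chromosome 15, 81585397 to 81652077, plus strand), had 312 and 319 CPM against 298 and 294 (log2 fold change -0.22, SE 0.06). Rad21, the gene that carries the degron, had 234 and 249 CPM against 249 and 272 (-0.01, SE 0.07). The adjusted p values by edgeR were 0.425, 0.181 and 0.138. They test the change before the median of 0.12 was subtracted, so they do not measure the centred changes printed here. The values of the groups overlap for Crebbp, lie next to each other for Rad21 and are apart for Ep300. The inhibitor acts on the proteins, and their transcript levels do not measure its effect.

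The 12 largest decreases among expressed genes included secreted enzymes, inflammatory signals and regulators of cell state. Clec2d, a C-type lectin ligand of an inhibitory receptor on natural killer cells (chromosome 6, 129180615 to 129186534, plus strand), went from 195 and 188 CPM in the controls to 1.91 and 1.34 with A-485. Its log2 fold change was -7.01 (SE 0.12), with an adjusted p of 7.29e-16 by edgeR. In counts, the controls held 2838 and 3090 and the A-485 libraries 29 and 22, and the 2 groups were far apart.

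Ptgs2 (COX-2), the inducible enzyme of prostaglandin synthesis (chromosome 1, 150100031 to 150108227, plus strand), went from 60.5 and 57.6 CPM to 0.922 and 1.28, a log2 fold change of -5.85 (SE 0.15). Ch25h, which makes 25-hydroxycholesterol, went from 10.5 and 7.48 to 0.263 and 0.121 CPM (-5.63, SE 0.39), and Ccl7, a chemokine that draws monocytes, from 27.5 and 26.3 to 0.988 and 1.34 CPM (-4.64, SE 0.18). In all of these the groups were far apart. Adamts1 and Adamts12, secreted metalloproteases that cut proteoglycans and other matrix proteins, fell as well (log2 fold change -4.59 and -4.89). Adamts1 (chromosome 16, 85793827 to 85803113, minus strand) had 316 and 311 CPM in the controls and 14.6 and 13.8 with A-485.

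Regulators of growth and state stood beside them. Hmga2, an architectural chromatin protein of fetal and stem cells (chromosome 10, 120361275 to 120476469, minus strand), had 754 and 740 CPM in the controls and 34.2 and 33.2 with A-485 (log2 fold change -4.60, SE 0.07). Zeb2, a zinc-finger repressor needed in neural crest and cortical development, had 224 and 217 against 8.89 and 7.41 CPM (-4.88, SE 0.09), and Cdh11, a cadherin of mesenchymal and neural cells, 634 and 627 against 32.9 and 27.2 (-4.52, SE 0.09). The groups were far apart for all 3. Of the uncharacterised transcripts in the 12, Gm17501 (-4.58) and Gm32834 (-4.55) fell, and 1700065J18Rik had 224 counts in the controls together and 2 with A-485, a ratio of 114 (95% counting interval 31.3 to 950). Of the 12 genes, 4 overlap a gene on the opposite strand, namely Gm32834 (S1pr3), Ch25h (Gm26902), Zeb2 (Zeb2os among others) and Hmga2 (a pair of antisense RNAs). Whether these libraries keep strand is not certain, so the reads of such partners cannot be told apart.

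Transcription factors of neural progenitors fell almost as a class. Of 64 tested members of the list, 57 fell (89.1%, against 20.2% of all genes tested) and none rose. The median log2 fold change was -2.46, against -0.11 over all genes tested. After Zeb2 the largest changes were those of Rfx4, a winged-helix factor of the dorsal neural tube (-4.34), Meis1, a TALE homeodomain partner of HOX and PBX proteins (-3.93), and Nfia, a factor of gliogenesis (-3.46). Meis1 had 951 and 927 CPM in the controls and 65.1 and 69.3 with A-485, and Nfia 529 and 536 against 54.6 and 51.2. The groups did not overlap for either gene. The markers that name the cell type moved with these factors: 13 of 15 tested neural progenitor markers fell, among them Ptprz1, a receptor phosphatase of radial glia (-3.71), the glutamate transporter Slc1a3 (-3.30) and Sox9 (-2.96). Their summed level was 1420 and 1780 TPM with A-485. Nes, an intermediate filament of progenitors, was not called, with 144 and 181 CPM in the controls and 99.2 and 120 with A-485 (-0.70).

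Mesenchymal markers fell too, at 76.9% of those tested against 20.2% of all genes tested. Of 13 tested neural crest and mesenchyme markers 10 fell, led by Snai1 (-3.73), Prrx1 (-3.59), Twist2 (-3.10) and Snai2 (-2.49), transcription factors of mesenchymal or migrating cells, and the summed level of the list was 953 and 1260 TPM with A-485. Col1a1 was not called (864 and 965 against 607 and 864 CPM, groups that lie next to each other). Most members of both marker lists thus fell, and the part of cell composition in either was not tested.

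HOX genes, which give cells a position along the body axis, fell with 1 exception. Of 26 tested 25 fell (96.2%, against 20.2% of all genes tested), with a median of -2.12 and decreases from all 4 clusters. The largest were Hoxb3 (-2.88), Hoxd3 (-2.75), Hoxa4 (-2.69) and Hoxc4 (-2.57). Hoxb3 had 260 and 253 CPM in the controls and 37.7 and 38.3 with A-485, and Hoxc4 46.2 and 47.1 against 7.44 and 9.6. The exception, Hoxb13, was at the low end of detection, with 1.93 and 2.61 CPM against 2.37 and 2.19 (-0.13, SE 0.29). The annotated Hoxa3 transcript overlaps Hoxa4, Hoxa5 and Hoxa6, which can share its reads.

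Immediate early genes, which respond to growth factors within minutes without new protein, mostly fell. The count was 26 of 37 (70.3%, against 20.2% of all genes tested), with a median of -1.59. Zfp36l1, which encodes a protein that speeds mRNA decay, went from 484 and 457 to 33.8 and 40.7 CPM (log2 fold change -3.78), and the kinase gene Sgk1 from 128 and 130 to 15 and 14.6 (-3.24). The orphan nuclear receptor Nr4a3 and the stress sensor Gadd45g also fell (-3.16 and -3.15). The list did not move as 1 block. Egr1 and Klf2, chosen after their values were seen, had higher levels with A-485 that did not reach the 2-fold limit. Egr1, a zinc-finger factor induced by ERK signalling, had 723 and 656 CPM in the controls and 1065 and 982 with A-485 (0.45, SE 0.07, adjusted p = 3.55e-06), and Klf2 had 34.4 and 30.2 against 57.6 and 56.4 (0.70, SE 0.08). In both genes each A-485 library was above each control. Levels also differed between the IAA libraries and the controls, at 1160 against 1880 TPM for Egr1 and 208 against 173 for Klf2.

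Genes of the MYC network moved in both directions. The genes of the 3 MYC proteins fell, Mycn from 58.7 and 49.4 to 2.90 and 2.73 CPM (log2 fold change -4.38), Myc from 87.1 and 80.4 to 6.52 and 5.89 (-3.88) and Mycl from 10.5 and 8.82 to 2.77 and 2.67 (-1.94). Mnt, a repressor that competes with MYC for MAX, fell by 1.23. Mxd1, another such repressor, rose from 22.5 and 23.2 to 63.0 and 61.2 CPM (log2 fold change 1.32, SE 0.08, adjusted p = 1.58e-10 by edgeR), one of the largest increases of an expressed gene. Max, the shared partner, had 63.5 and 71.7 CPM against 80.3 and 80.8 (0.13) and was not called. In the whole list of 12 genes, 4 fell (33.3%, against 20.2% of all genes tested) and 1 rose.

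Ligands, receptors and feedback genes of several signalling pathways fell. The share called lower was 45.9% (WNT) to 89.3% (FGF and ERK feedback) in the signalling lists below. Over all genes tested it was 20.2%, and over those not expressed 34.6%. Among tested members, 16 of 37 WNT, 7 of 14 retinoid and 10 of 19 clock genes were expressed. Of 28 tested genes of FGF and EGF signalling and ERK feedback, 25 fell (median -2.16). Among the ligands, Areg and Ereg, which bind the EGF receptor, fell (-4.52 and -4.02). The receptor gene Egfr had 3316 and 3846 counts in the controls and 220 and 181 with A-485 (-4.31, SE 0.09), and Spry1, a feedback inhibitor of receptor tyrosine kinases, 417 and 423 CPM against 21.7 and 29.4 (-4.16, SE 0.10). The groups were far apart for both genes, in cells that the protocol keeps in FGF2 and EGF.

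Of 15 Hedgehog genes 10 fell (median -2.32). These were led by the co-receptors Boc (-4.21) and Gas1 (-3.26), by Hhip, which binds and traps the ligand (-3.89), and by Ptch1, the receptor and a feedback target, which went from 443 and 443 to 30.9 and 34.9 CPM (-3.87). The other 5 genes had log2 fold changes between -0.04 and 0.44. Of 24 Notch genes 14 fell (median -1.68), led by Lfng, a glycosyltransferase that tunes Notch (-3.40), the coactivator Maml2 (-3.37) and the ligands Jag1 (-3.02) and Dll1 (-3.00). Jag1 had 117 and 127 CPM in the controls against 15.9 and 16.8.

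Of 39 TGF-beta and BMP genes 26 fell (median -1.80), among them the inhibitory Smad6 (-3.62), the co-receptor Tgfbr3 (-3.48), the BMP antagonist Nog (-2.95) and the ligand Bmp2 (-2.94), and no member lay above 0 on this scale. Of 37 WNT genes 17 fell (median -0.93), among them the ligands Wnt7a (-4.08) and Wnt7b (-2.93), the target factor Sp5 (-3.66) and the receptor Lgr5 (-2.99). Sp5 rests on few reads, at 1.51 and 1.58 CPM in the controls and 0.132 and 0.121 with A-485. Targets of YAP and TEAD, the effectors of Hippo signalling, fell in 18 of 25 cases (median -1.58): the largest changes were those of F3 or tissue factor (-4.41), Ankrd1 (-3.66), Ccn2 (-3.27) and Crim1 (-3.19). Ccn2, a matricellular protein often used to read YAP activity, had 115 and 107 CPM against 10.6 and 14.3. Retinoid genes fell in 10 of 14 cases, among them Dhrs3, an enzyme of retinoid metabolism (-3.79). Aldh1a1, another, had 43 counts in the controls together and 2 with A-485, a ratio of 22 (95% counting interval 5.72 to 187). Circadian clock genes fell in 10 of 19 cases, led by Npas2 (-2.91) and Arntl (-2.88), which encode partners of the same activator complex.

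Adhesion and matrix genes differed by family in how many fell. Over all genes tested 20.2% fell, over expressed genes 11.2% and over those not expressed 34.6%. Expressed were 3 of 15 tested cadherins, 13 of 41 collagens and 8 of 31 laminins and integrins. So were 9 of 20 Eph receptors and ephrins and 11 of 28 semaphorins, plexins and neuropilins. The shares of these lists that fell were, in this order, 86.7%, 63.4%, 51.6%, 60% and 46.4%. Of 15 classical and related cadherins 13 fell (median -2.83), led by Cdh11 and Cdh6 (-4.37). Of 41 collagens 26 fell (median -1.65), the largest expressed at low levels, such as Col8a1 (7.08 and 8.27 against 0.132 and 0.304 CPM). Of 31 laminins and integrins 16 fell, led by Itga8 (-3.94) and Itgb8 (-3.79). Axon guidance genes fell in 12 of 20 Eph receptors and ephrins and in 13 of 28 semaphorins, plexins and neuropilins, with Epha3 (-4.39), Epha4 (-4.25), Sema3e (-4.64) and the receptor Nrp1 (-4.24) at the top. The clustered protocadherins, whose promoters are chosen with the help of CTCF and cohesin, stood apart: 2 of 52 fell (Pcdhga10, at -1.03, and Pcdhgc4, at the 2-fold limit), with a median of -0.26. Their isoforms share exons and so share reads. Solute carriers, a broad family with no common tissue, fell in 42 of 267 cases (15.7%, against 20.2% of all genes).

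**Figure D2:**
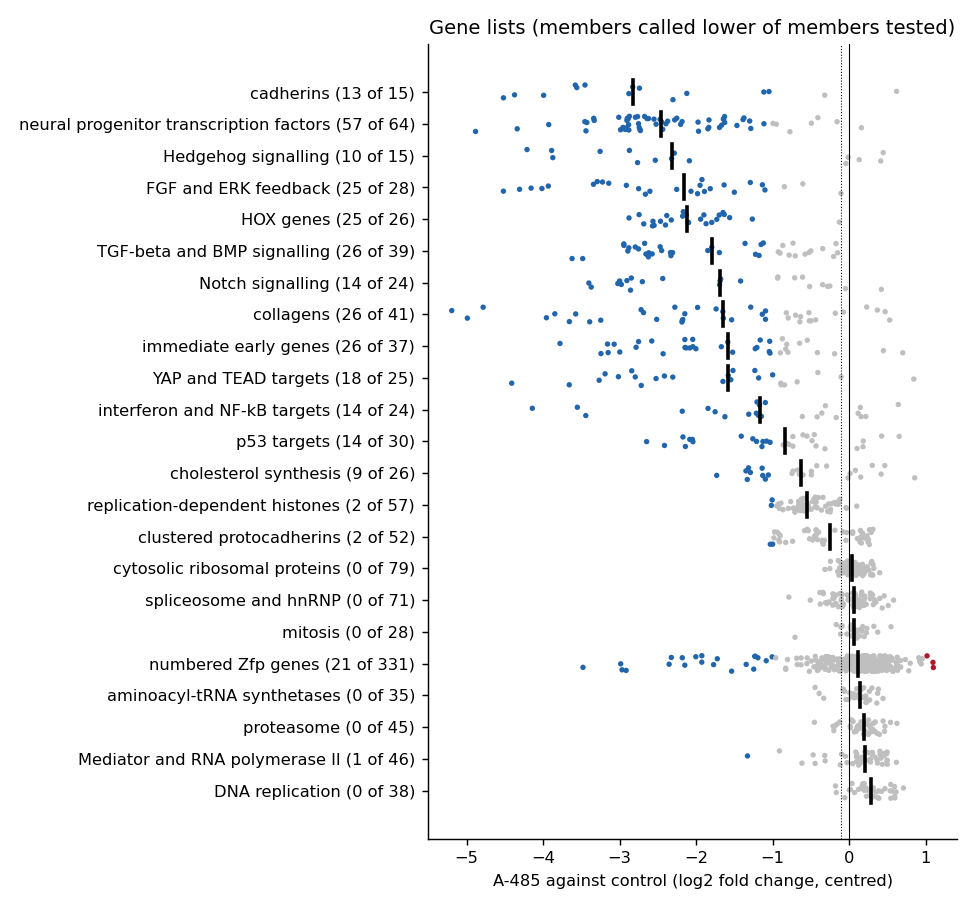
Log2 fold change of A-485 over control (centred) for each tested member of 23 gene lists, one point a gene, blue where called lower, red where called higher and grey otherwise. Black ticks mark list medians, the dotted line marks the median of all genes tested (-0.11), and the lists run from cadherins (-2.83) to DNA replication (0.29).

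Stress and metabolic lists fell in part. Of 30 p53 target genes 14 fell (median -0.84), among them the kinase Plk2 (-2.65), the cell cycle inhibitor Cdkn1a (-2.41) and the cell death genes Fas (-2.17) and Bbc3 (-2.14). Cdkn1a had 379 and 361 CPM in the controls and 76 and 75 with A-485. Cholesterol genes fell in 9 of 26 cases, among them the regulator Srebf2, at 360 and 377 against 155 and 160 CPM (-1.35), and Sqle, an enzyme of the synthesis pathway (-1.33). Interferon and NF-kB targets fell in 14 of 24 cases, led by the chemokines Cxcl1 (-4.14) and Ccl2 (-3.55). Hypoxia targets Adm (-3.44) and Egln3 (-3.38) fell, and in all 4 of 24 glycolysis and hypoxia genes did (16.7%). Among 23 genes of G1 control, 6 fell (26.1%), with Cdk6 (-2.47) and Rb1 (-1.82) beside Cdkn1a and the CDK inhibitor Cdkn2b (-1.75). The shares of these last 2 lists are near the 20.2% of all genes, but above the 11.2% of expressed genes. Of the tested members, 17 of the 24 glycolysis and hypoxia genes and 22 of the 23 G1 genes were expressed. Of 24 imprinted genes 10 fell, led by Usp29 (-2.98), Rtl1 (-2.23), Igf2r (-1.96) and Mest (-1.84), whereas H19, the most abundant of them at a control level of 5290 TPM, was not called (876 and 1087 against 746 and 1108 CPM, groups that overlap).

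Lists of the basic cellular machinery held few or no genes that fell. None of 79 cytosolic ribosomal protein genes was called, and their log2 fold changes lay between -0.32 and 0.40 (median 0.04). Rpl8, in the controls the most transcribed of them per length, had 116 and 132 CPM there. With A-485 it had 124 and 164 CPM (0.09, SE 0.10), and the groups overlap. No gene fell among 78 mitochondrial ribosomal proteins, 45 proteasome genes, 35 aminoacyl-tRNA synthetases, 71 spliceosome and hnRNP genes, 38 DNA replication genes or 28 mitosis genes, and 1 of 83 respiratory chain genes (Cox4i2, -1.02) and 1 of 61 translation factors (Eif4e3, -1.02) did. These are counts at a 2-fold limit. A higher value with an adjusted p under 0.05, for the change before the median was subtracted, was held by 32 of 38 DNA replication genes. It was also held by 35 of 45 proteasome and 57 of 78 mitochondrial ribosomal protein genes, and by 5190 of all 16009 tested. A lower value at this p was held by 0, 0 and 6 genes of these lists and by 5648 of all tested. Pcna, the sliding clamp, was among the DNA replication genes with a higher value, at 68.3 and 62.7 CPM against 109 and 98.5 (0.54). The medians of these lists, from 0.04 to 0.29, are close to the choice of zero. With the mode of all changes as zero in place of the median they are 0.12 lower, so that the cytosolic ribosomal, spliceosome, mitosis and translation factor lists lie just below 0, and no direction is given for them.

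Histone genes and zinc-finger genes were 2 more large families outside the main response. Of 57 replication-dependent histones 2 fell, the linker histones Hist1h1d (-1.02) and Hist1h1c (-1.01), and the median was -0.55. Without regard to size, 32 members were lower at an adjusted p under 0.05, as were 5648 of all 16009 genes tested. Neither linker histone was called against the IAA libraries. IAA against the same controls gave a median of -0.37 for this list. Near-identical histone copies can share or lose reads at the mapping filter, so single values are uncertain. Of 331 numbered Zfp genes, many of them KRAB repressors that lie in tandem clusters, 21 fell, 3 rose (Zfp661, Zfp791 and Zfp956) and the median was 0.12. Those that fell were led by Zfp423 (-3.48), Zfp503 (-2.99) and Zfp521 (-2.97), developmental regulators rather than KRAB members.

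Among the parts of the transcription machinery, the share called lower ranged from 2.17% to 21.4% by list, against 20.2% of all genes and 11.2% of expressed genes. Of 46 Mediator and RNA polymerase II genes 1 fell, Med12l (-1.33), a low-level paralog of Med12. Of 29 genes of BET proteins and pause release 1 fell, the elongation factor Aff1 (-1.81). Brd2, the most transcribed of them, had 467 and 453 CPM against 405 and 399 (-0.32), and Hexim1, an inhibitor of the elongation kinase P-TEFb, chosen after its values were seen, had 46.9 and 44.6 against 91.6 and 95.1 (0.91, SE 0.07, adjusted p = 1.66e-09), just under the limit. Of 14 acetyltransferases, 12 of them expressed, 3 fell (21.4%, near the share of all genes but above that of expressed genes). These were Ncoa2 (-1.28), Kat6b (-1.24) and Kat2b (-1.05), the last 2 not called against IAA. Of 17 deacetylases 1 fell, Hdac7 (-1.55). Of 15 cohesin and CTCF genes 1 fell, Stag2, a cohesin subunit, from 276 and 255 to 127 and 117 CPM (-1.24).

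The 8 largest increases of the 19 expressed genes that rose were at control levels of 7.03 (Gm20219) to 26.1 TPM (Gm17617). Of the 8 genes, 5 were at or under 15 TPM in the controls and count as expressed through their level with A-485, as do 9 of the 19, and Gm17617 (13 and 21 counts in the controls, 31 and 62 with A-485) passed the count filter only with A-485. After Gm20219 (log2 fold change 1.51, at 1.51 and 1.46 CPM in the controls and 5.33 and 3.95 with A-485), Ankrd53 (1.35) and Mxd1 came Gm17617 (1.29), Tprn (1.27), Scgb3a1 (1.21), Rogdi (1.18) and Alkbh6 (1.17). Alkbh6, a putative dioxygenase, had 9.29 and 8.39 CPM against 21.1 and 22.2, and Rogdi 5.30 and 5.41 against 12.9 and 13.5. Both pairs were apart without overlap. Gm17617, Tprn and Scgb3a1 were not called against the IAA libraries, the call of Gm17617 was lost without A-485 replicate 2 (0.78) and that of Scgb3a1 without control replicate 2 (0.95). Of the 19 genes, 13 overlap another annotated gene and 9 of these one on the opposite strand, for example Gm17617 within Zfp346, which had a log2 fold change of 0.50. Mrps24, with 17.9 and 17.3 CPM against 40.7 and 37.2 (1.02), was the only mitochondrial ribosomal protein gene called, and it was not called against the IAA libraries (0.88).

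The share of genes that fell varied with their level in mESCs. Genes were sorted by their level in 12 mESC control libraries, counted over whole gene bodies without the 90 kb limit. Taken were the 9851 tested genes above 15 TPM in the IAA libraries (14.1% called lower). Neither this threshold nor the sorting used a library of the comparison. The count filter that all tested genes had passed did use the control and A-485 libraries. Of 279 genes under 1 TPM in mESCs, 239 fell (85.7%, median log2 fold change -2.37). The share was 48.7% at 1 to 5 TPM, 25.8% at 5 to 15 TPM, 10.2% at 15 to 50 TPM and 5.68% of 4065 genes at 50 TPM and over. The median response to IAA was 0.09 in the lowest class and 0.00 in the highest.

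Long genes fell more often than short ones. The share called lower was between 10.1% and 18.1% for spans up to 90 kb, 39.3% at 90 to 200 kb and 65.9% of 135 genes of 200 kb and over (median log2 fold change -1.67). Counting stopped at 90 kb from the start, and the median response of the longest class to IAA was -0.07. The order was also present when level and span were crossed. Among genes at 15 TPM and over in mESCs, 5.96% fell below 20 kb, 7.73% at 20 to 90 kb and 29.4% at 90 kb and over. Among genes under 5 TPM in mESCs the shares were 57.3%, 60% and 85.3%. By type, lincRNAs fell more often than protein-coding genes (30.3% of 261 against 13.7% of 9552).

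A gene fell more often where a close neighbour had fallen. For each tested gene the nearest tested gene that does not overlap it was taken. Where this neighbour was 1 to 10 kb away and had itself fallen, 307 of 680 genes fell (45.1%), against 437 of 4851 (9.01%) where it had not. At 10 to 50 kb the shares were 40% and 19.3%, and at 50 to 500 kb 48.4% and 42.9%, so the contrast was widest between close neighbours.

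Promoters of the fold classes differed in sequence. Windows from 250 bases before to 50 bases after each annotated start were read from GRCm38, which gave 9859 of 9866 expressed genes a promoter, and 9 motifs were searched as exact strings on both strands, except TATAAA, which was taken on the transcript strand 50 to 20 bases before the start. CCGGAAG, the core bound by ETS factors, was present in 3.07% of promoters of genes more than 4-fold lower, 6.32% at 2- to 4-fold, 10.1% at 1.5- to 2-fold, 14.6% at 1.2- to 1.5-fold and 24.7% of genes that were less than 1.2-fold lower and less than 1.5-fold higher. It is in 20.2% of all expressed genes and 9.90% of all transcripts of the table. Read the other way, 56 of 1989 expressed genes with CCGGAAG fell (2.82%), against 13.3% of the others. AAGATGGCG, a form of the YY1 site, was rarer, at 0.709% of genes more than 4-fold lower and 4.64% of the last class (3.55% of expressed genes, 1.67% of all transcripts), and 5 of 350 expressed genes with it fell (1.43%).

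TATAAA, the TATA box of sharply starting promoters, had the opposite order, at 3.55% of genes more than 4-fold lower, 2.50%, 1.80%, 1.04% and 0.46% over the same classes (0.92% of expressed genes, 2.49% of all transcripts). Of 91 expressed genes with it 32 fell (35.2%), against 11% of the others. GGGCGG, the GC box of Sp1-type factors, was common in every class, at 58.9% to 70.9% (63.9% of expressed genes). CCAAT, TGACGTCA (bound by CREB), TGANTCA (AP-1), CACGTG (E-box) and GCGCATGCG (NRF1) made up the rest of the search, and of these GCGCATGCG was, like CCGGAAG, rarer at genes that fell, with 10 of 381 such expressed genes called lower (2.62%). Although CBP is named for its binding to CREB, 31 of 359 expressed genes with TGACGTCA fell (8.64%, against 11.3% without). Genes with fewer CpG dinucleotides fell more often, with a share of 25.3% under an observed to expected ratio of 0.25 and 9.84% at 1 and over. These shares describe letters in a window and do not show binding.

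The upstream sequence of 5 genes shows both promoter types, 150 bases up to the base before the start, 5′ to 3′ on the transcript strand of GRCm38, with TATAAA in capitals in 3 genes that fell and CCGGAAG in capitals in 2 genes of lists without decreases. The windows are Adamts1 at chr16:85803114-85803263 (minus strand), Ccl7 at chr11:82045562-82045711 (plus), Zfp36l1 at chr12:80113014-80113163 (minus), Rpl8 at chr15:76903928-76904077 (plus) and Psme3 at chr11:101316063-101316212 (plus).
Adamts1: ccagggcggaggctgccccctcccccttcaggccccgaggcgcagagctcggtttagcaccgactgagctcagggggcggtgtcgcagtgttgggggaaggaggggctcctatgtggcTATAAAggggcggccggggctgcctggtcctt
Ccl7: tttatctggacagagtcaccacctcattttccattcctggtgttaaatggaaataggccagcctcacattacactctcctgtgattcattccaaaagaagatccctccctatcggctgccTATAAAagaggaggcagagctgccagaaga
Zfp36l1: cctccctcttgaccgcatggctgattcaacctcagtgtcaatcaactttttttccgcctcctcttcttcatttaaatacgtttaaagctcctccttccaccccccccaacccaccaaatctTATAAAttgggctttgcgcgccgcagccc
Rpl8: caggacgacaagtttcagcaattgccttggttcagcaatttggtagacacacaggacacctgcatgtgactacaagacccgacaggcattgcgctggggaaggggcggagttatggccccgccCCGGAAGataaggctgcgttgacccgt
Psme3: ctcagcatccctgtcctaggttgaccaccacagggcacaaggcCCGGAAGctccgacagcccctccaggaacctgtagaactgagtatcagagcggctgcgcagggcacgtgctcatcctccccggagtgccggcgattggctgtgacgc

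In the 3 genes that fell, TATAAA began 32 (Adamts1), 30 (Ccl7) and 29 (Zfp36l1) bases before the start, and CCGGAAG began 27 bases before the start of Rpl8 and 107 before that of Psme3, a proteasome activator. Psme3 had 115 and 115 CPM in the controls and 134 and 149 with A-485 (log2 fold change 0.18). This higher value in both A-485 libraries stayed outside the call. The 3 genes with TATAAA had log2 fold changes of -4.59 (Adamts1), -4.64 (Ccl7) and -3.78 (Zfp36l1). These 5 genes were chosen with motif and response known, so they are examples and no test. Of all 91 expressed genes with TATAAA, 32 fell (35.2%).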

How the data were processed

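EU-seq libraries of GFP-AID-Rad21 NPCs, 2 control, 2 A-485 and 2 IAA 1 h, were used. Per the methods, the authors mapped the reads to mm10 (bwa meme), filtered them on mapping quality (SAMtools 1.4) and against rRNA and tRNA regions (Bedtools), and used HTSeq to count them over the exons and introns of a representative GENCODE transcript of each gene, up to 90 kb from its start. What was deposited, and is used here, are these raw counts. Either a strand-keeping or a non-directional kit was used, and which one is not given in the sources used here. The titles of some other libraries of the series say stranded, and those of these libraries do not.

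Genes with a mean count above 20 in either group were tested in R 4.3.3 with edgeR 4.0.16 (TMM, quasi-likelihood F test, two-sided, Benjamini-Hochberg). The median log2 fold change of expressed genes (0.12) was subtracted, the test being of the change before this. Calls needed an adjusted p under 0.05 and at least 2-fold. SE is the size of that change over the root of F. TPM used the length counted, and CPM the TMM-scaled totals. Nothing says that replicates are separate cultures, so p values measure the spread between these samples. Names, spans and starts came from a GENCODE annotation of GRCm38 that matched all but 210 of 27665 transcripts, and 631 symbols have 2 or more tested transcripts, which can share reads.

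Named genes were the 12 expressed genes with the largest called decreases and the 8 with the largest called increases, where both same-numbered pairs had that direction, up to 4 called or the most transcribed members of each list, and Crebbp, Ep300 and Rad21. Outside this rule, Col1a1, Egr1, Fabp7, H19, Hoxb13, Klf2, Max, Mnt, Nes, Sox2, Vim, Zfp346, Zfp661, Zfp791, Zfp956 and genes named for an overlap were chosen after their values were seen. Members and lists were chosen with earlier results of these data known. In simulated data of 15749 genes, 50 of 50 genes changed 4-fold were called, 23 of 50 changed 2-fold, and no unchanged gene. Few genes were changed there, as many up as down, and all well above the count filter. Calls at low counts and the centring of a one-sided response were therefore not tested by it. Alternatives were DESeq2 1.42.0, other size factors, filters and centring, a replicate block, the IAA libraries in the fit and each library left out.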

Additional observations from a re-analysis of the deposited data

How the results depend on the processing

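Calls of lower genes numbered 3231 and ranged from 2392 (mean count above 100) to 3677 (any count) over the filters, tools, scalings and centrings tried, with 3108 by DESeq2 and 3116 to 3247 when a library was left out. Calls of higher genes moved more: from 132 to 201 with any count, 37 with a mean count above 100, 208 without centring and 83 centred on the mode, with 99 by DESeq2 and 135 to 188 when a library was left out. Of the 132, 89 were also called without control replicate 2. Against IAA the 212 higher calls became 57 with a mean count above 100. A fit with a replicate block gave 3236 lower and 132 higher calls. Same-numbered control and A-485 libraries share only a number, with a correlation of their deviations of 0.12.

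Without a TPM threshold, 1361 genes were more than 4-fold lower, 1558 were 2- to 4-fold lower, 1262 were 1.5- to 2-fold lower, 1100 were 1.5- to 2-fold higher and 191 at least 2-fold higher. Above 5 TPM the numbers were 717 for more than 4-fold lower, 591 for 1.5- to 2-fold higher and 58 for at least 2-fold higher, and centred on the mode the last 2 were 140 and 10. With a mean count above 100, 8 cadherins, 13 potassium channels (28 of 58 in the main analysis) and 27 solute carriers were called lower, since fewer genes are tested there. Leaving out a library gave 0 to 1 proteasome genes lower. The 12 largest decreases, the 8 largest increases, Crebbp, Ep300 and Rad21 (23 genes, the members of lists not being followed singly) had 342 values under these alternatives, of which 340 kept the call or its absence, and Gm17617 (0.78 without A-485 replicate 2) and Scgb3a1 (0.95 without control replicate 2) did not.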

Other observations

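Of 58 tested potassium channel genes, 4 of them expressed, 28 fell (48.3%) and 2 rose. The share called lower was 20.2% over all genes tested and 34.6% over those not expressed. The 2 that rose were Kcng2 and Kcnq1, both under 1 TPM in either group. They passed the count filter only through the A-485 libraries and were not called against IAA. Of 17 tested neuron markers, 2 of them expressed, 8 fell (47.1%). Their summed level was 165 and 176 TPM in the controls and 110 and 125 with A-485. Of 9 tested astrocyte markers, 4 of them expressed, 6 fell (66.7%), from a summed 675 and 685 to 188 and 205 TPM. Of 6 genes of the aryl hydrocarbon receptor list, 4 of them expressed, 4 fell (66.7%). These were the receptor Ahr (log2 fold change -3.56), Arnt2 (-1.51), Nqo1 (-1.36) and Tiparp (-1.21). Of 26 genes of the unfolded protein and amino acid response 4 fell (15.4%, against 20.2% of all genes tested), the cystine transporter Slc7a11 (-2.67), Ddit4 (-2.32), Vldlr (-2.14) and Sesn2 (-1.41), and of 20 heat shock genes 1, Hspb8 (-1.64).

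Over all genes tested, the share called lower had no single order with level. It was 42.3% under 1 TPM in the IAA libraries, 34.7% at 1 to 5 TPM, 22.1% at 5 to 15 TPM, 14.5% at 15 to 50 TPM, 11.7% at 50 to 150 TPM and 21% of 1002 genes at 150 TPM and over. Among the 6143 tested genes that were not expressed, 34.6% were called lower. This share is not independent of the response. The class is set by the mean level of both groups, which a fall itself lowers, and low genes can enter the test through the controls alone.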
